A study of Mus musculus with 18 samples.

Results

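The genes described here are 7 claudins (Cldn2, Cldn3, Cldn4, Cldn7, Cldn8, Cldn15 and Cldn23), occludin (Ocln), the scaffold protein ZO-1 (Tjp1) and E-cadherin (Cdh1). They were chosen by name, as all probes of a mouse expression array that carry the symbol of 1 of these 10 genes. Among 30869 gene symbols and 45281 probes on the array, these genes had 15 probes, and 14 of them were detected often enough to be tested, with every one of the 10 genes represented. The probe left out was the second Cldn8 probe (ILMN_2681236), which was detected on 0 of 18 arrays. These 14 probes stand among 21938 tested probes in all.

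Neighbouring epithelial cells are held together by tight junctions, which seal the space between cells, and by the adherens junctions beneath them. Claudins are membrane proteins that form the strands of the tight junction. Some of them tighten the seal, whereas others, such as Cldn2 and Cldn15, form pores that let small ions pass. Occludin lies in the same strands, Tjp1 ties strand proteins to the actin cytoskeleton, and Cdh1 is the adhesion protein of the epithelial adherens junction. In the colon this barrier keeps luminal bacteria from the tissue, and dextran sulphate sodium (DSS), given in drinking water, damages the epithelium and causes colitis.

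The RNA came from colon epithelial cells of C57BL/6 mice, which were sorted by flow cytometry as EpCAM+ cells without CD45, CD3 or a macrophage surface marker. The 4 groups were wild-type mice without DSS (Naive_WT), Mbd2-deficient mice without DSS (Naive_KO), and both genotypes after 2% DSS (DSS_WT and DSS_KO), with 4 samples each. Mbd2, which reads methylated CpG in DNA, was absent from the whole animal and not only from the epithelium, the wild-type (WT) mice were littermates housed together with the Mbd2-deficient (Mbd2KO) mice where possible, and a replicate could pool several mice. The study's methods state that mice were matched for age and sex and give 1 range of adult ages for all experiments, with no age for single groups. All levels are normalized log2 signals, on which a difference of 1 is a doubling, and they compare groups for the same probe only.

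Between 41.6% and 45.5% of probes were detected per array. The only Mbd2 probe was detected on 0 of the 18 arrays and stayed near background in all groups (log2 4.31 to 4.68), so it did not check the genotype labels. The 8 tested markers of epithelial identity, such as Epcam, Krt8 and Vil1, averaged log2 12.08 to 12.37 in every sample, and limma gave no adjusted p under 0.05 for any of them in the comparisons within 1 genotype or 1 treatment. Of these markers Cdx2 was higher with DSS in a contrast averaged over genotypes (0.55, limma adjusted p = 0.0397). In bulk RNA, fewer cells of a type and less RNA per cell cannot be told apart.

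Cldn4 and Cldn3 lie side by side on chromosome 5 with no annotated gene between them, and their probes are 42 kb apart in the coordinates of the deposited file, whose build is not stated. Because Mbd2 binds methylated CpG, the 250 bases upstream of the start sites of Cldn4, Cldn3 and Ocln are shown for their CpG content (RefSeq, GRCm38.p6, 5′ to 3′, every CG in capitals).
Cldn4, chr5:134946935-134947184, minus strand: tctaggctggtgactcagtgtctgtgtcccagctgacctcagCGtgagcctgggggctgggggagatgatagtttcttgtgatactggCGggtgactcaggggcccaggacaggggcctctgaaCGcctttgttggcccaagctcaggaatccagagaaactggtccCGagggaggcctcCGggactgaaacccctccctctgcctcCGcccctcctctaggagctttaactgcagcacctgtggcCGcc
Cldn3, chr5:134985964-134986213, plus strand: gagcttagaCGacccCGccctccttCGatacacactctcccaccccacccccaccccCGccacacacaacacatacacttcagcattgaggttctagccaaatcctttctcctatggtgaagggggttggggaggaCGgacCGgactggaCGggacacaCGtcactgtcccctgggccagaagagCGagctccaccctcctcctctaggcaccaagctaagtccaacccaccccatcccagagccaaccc
Ocln, chr13:100552719-100552968, minus strand: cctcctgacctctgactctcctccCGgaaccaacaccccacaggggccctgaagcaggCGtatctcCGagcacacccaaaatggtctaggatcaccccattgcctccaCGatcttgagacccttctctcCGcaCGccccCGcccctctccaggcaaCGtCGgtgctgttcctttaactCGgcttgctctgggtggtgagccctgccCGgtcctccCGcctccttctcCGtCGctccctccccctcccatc
The Cldn4 window held 7 CG pairs and the Cldn3 window 9. Of 32851 promoter windows of this length, 46.3% held as many CG pairs as Cldn4 or more, 40.3% as many as Cldn3 or more, and 92.1% at least 1. The Ocln window held 14, a second Ocln window and the Tjp1 window 22 each, the Cldn15 window 7, the Cldn7 windows 6 and 10, and the Cldn2 window 4. Counts were taken on the strand shown, and CG reads the same 5′ to 3′ on the other strand. Windows for Cldn8, Cldn23 and Cdh1 were not used here. Methylation was not measured on these arrays.

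The probes are 50 bases long, and the first 30 bases identify those on which the comparisons below turn, with the 3 probes of Cldn15 shown because their values differed between comparisons (5′ to 3′).
Cldn4 ILMN_1223949: tctgagttccctccctttgcccatttcaag
Cldn3 ILMN_2634167: ctgtccaagccgaatggacaaagaaacctc
Ocln ILMN_1226104: gctgtgctagcaggtgattgcccagtcctt
Cldn15 ILMN_2793817: gggggagtcactaacaactgatctgagtca
Cldn15 ILMN_2674906: tatctggcactcagcctctccctggaacag
Cldn15 ILMN_1245622: tcagcttcggtaaatatggcaaaaacgcat
In the transcripts that the deposited file names, the Cldn4 probe starts at base 1579, the Cldn3 probe at 1095, the Ocln probe at 2880 and the Cldn15 probes at 1642, 1070 and 885, and whether these stretches are coding is not stated there.

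Loss of Mbd2 went with a lower level of Cldn4 in both naive and DSS-treated mice, and of the 10 genes it was the one past the test in both genotype comparisons. Cldn4 is a sealing claudin of the colon surface epithelium. Without DSS the Cldn4 signals were 12.18, 12.88, 11.40 and 12.92 in Naive_WT and 9.39, 9.88, 10.23 and 11.62 in Naive_KO. The Naive_KO samples were lower except that the highest of them lay above the lowest Naive_WT sample, so the groups overlapped. The means were 12.34 ± 0.71 and 10.28 ± 0.96 (SD, n = 4), a log2 fold change of -2.06 (95% confidence interval -2.87 to -1.25) or a 4.18-fold lower level in Naive_KO, with an adjusted p of 0.00669 in limma. With DSS the Cldn4 signals were 12.77, 12.77, 12.37 and 12.16 in DSS_WT and 11.10, 10.67, 10.98 and 10.69 in DSS_KO. Every DSS_KO sample lay below every DSS_WT sample. The log2 fold change was -1.66 (SE 0.383, 95% confidence interval -2.47 to -0.85), a 3.16-fold lower level in DSS_KO, with an adjusted p of 0.0191 in limma. It rose above 0.05 when DSS_WT replicate 2 (0.0618) or DSS_KO replicate 8 (0.053) was left out.

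The genotype effects on Cldn4 without and with DSS differed by 0.41 on the log2 scale, with a 95% confidence interval of -0.74 to 1.55 (interaction, limma adjusted p = 0.835). This interval does not show that the effects were equal. The spread between samples differed, since the SD within a group was 0.71 and 0.96 in the naive groups but 0.30 and 0.21 in the DSS groups. A contrast added after the data were seen averaged the genotype effect over both treatments, and it gave Cldn4 a log2 fold change of -1.86 (95% confidence interval -2.43 to -1.29), a 3.63-fold lower level, with a limma adjusted p of 0.000399. The study names Cldn4 from samples of this kind, so its direction is no independent evidence.

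**Figure D1:**
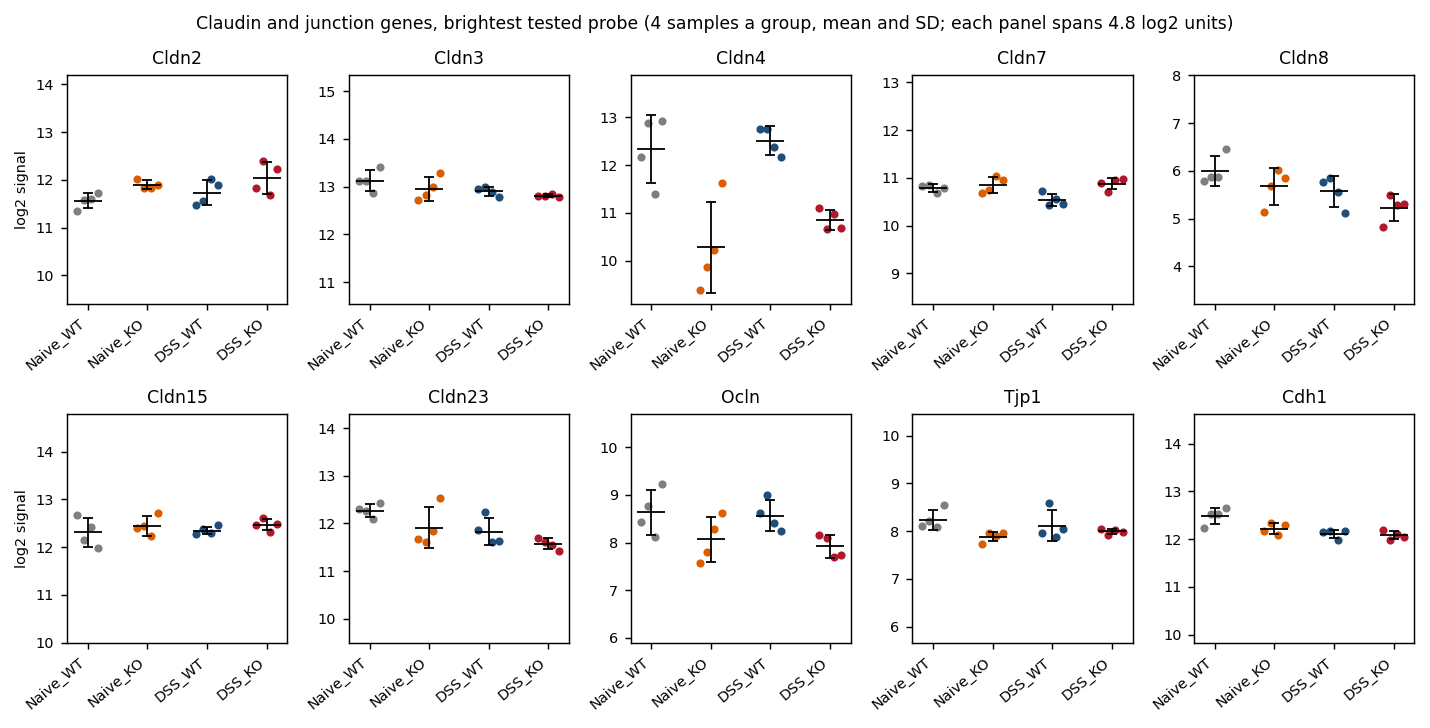
Normalized log2 signal (y axis) of the brightest tested probe of each of the 10 genes in the 4 groups (x axis), 1 point per sample, with bars for the mean and SD of 4 samples. All panels span the same range of log2 units, and Cldn4 is the gene with the widest gap between the WT and the Mbd2KO groups, from a mean of 12.34 to 10.28 without DSS and from 12.52 to 10.86 with DSS.

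Cldn3, the neighbour of Cldn4, encodes a claudin of the same sealing kind and did not pass the test in either genotype comparison. Its signals were 13.12, 13.11, 12.86 and 13.40 in Naive_WT and 12.71, 12.83, 12.99 and 13.29 in Naive_KO. With DSS they were 12.94, 12.99, 12.89 and 12.77 in DSS_WT and 12.81, 12.80, 12.85 and 12.79 in DSS_KO. The groups overlapped in both treatments. The log2 fold change was -0.17 without DSS (95% confidence interval -0.44 to 0.11, limma adjusted p = 0.474) and -0.09 with DSS (-0.36 to 0.19, limma adjusted p = 0.762). To set both genes side by side, the Cldn3 signal was subtracted from the Cldn4 signal in each sample. The mean difference changed between genotypes by -1.90 without DSS and by -1.57 with DSS, and the samples of both genotypes did not overlap in either treatment. An exact permutation test gave p = 0.0286 in each genotype comparison, the smallest p it can give here, and 0.0572 after Benjamini-Hochberg adjustment over 4 comparisons. The difference is given as a description, since the pair was chosen after the values of both genes were seen.

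**Figure D2:**
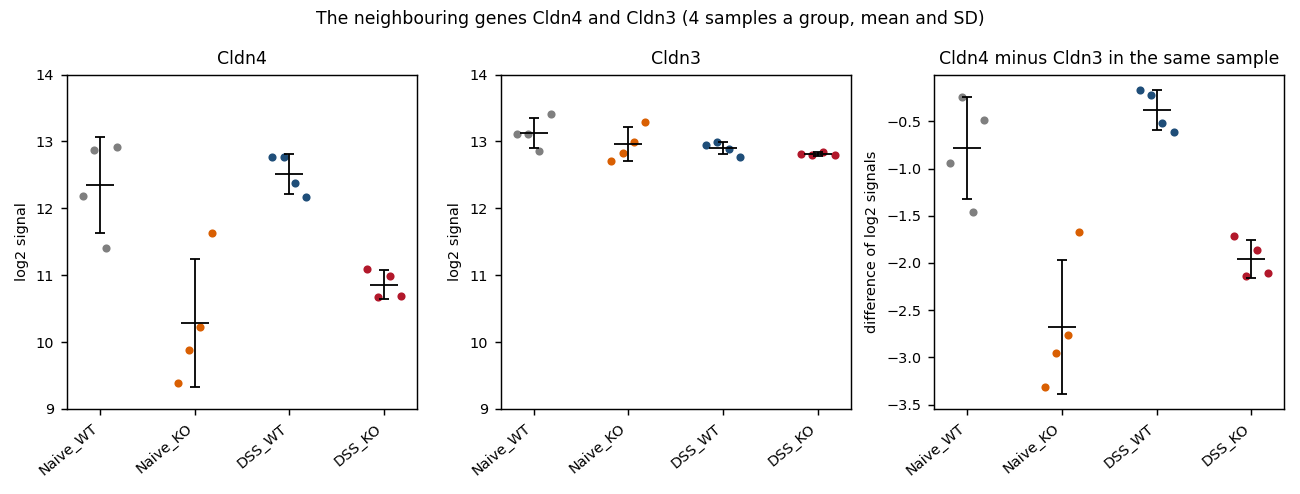
Log2 signals of Cldn4 and of Cldn3 and the within-sample difference between them (y axes) in the 4 groups (x axes), with points for samples and bars for the mean and SD of 4 samples. The difference lay between -1.46 and -0.24 in Naive_WT and between -3.32 and -1.67 in Naive_KO, whereas the Cldn3 signals of all groups lay within 12.71 to 13.40.

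Occludin, the other strand protein measured, was lower in Mbd2KO in both treatments, but neither comparison passed the test. Its signals with DSS were 8.61, 8.99, 8.41 and 8.25 in DSS_WT and 8.16, 8.09, 7.69 and 7.74 in DSS_KO, and these groups did not overlap. Without DSS they were 8.42, 8.77, 8.11 and 9.22 in Naive_WT and 7.58, 7.79, 8.29 and 8.62 in Naive_KO, and these groups overlapped. The log2 fold changes were -0.65 with DSS (95% confidence interval -1.17 to -0.12, limma adjusted p = 0.132) and -0.56 without (-1.08 to -0.04, limma adjusted p = 0.189). In the averaged contrast Ocln fell by 0.60 on the log2 scale (95% confidence interval -0.97 to -0.23), a 1.52-fold lower level with a limma adjusted p of 0.0299, which rose above 0.05 without DSS_WT replicate 2, DSS_KO replicates 7 or 8, Naive_WT replicates 10 or 12, Naive_KO replicates 13 or 14, or without the filter on dim probes (adjusted p of up to 0.0658).

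The pore-forming claudins Cldn2 and Cldn15 did not pass the test between genotypes. The brightest Cldn2 probe read 11.36 to 11.73 in Naive_WT and 11.83 to 12.02 in Naive_KO, with no overlap, and 11.46 to 12.01 in DSS_WT and 11.68 to 12.39 in DSS_KO, with overlap. Its log2 fold change was 0.33 without DSS (limma adjusted p = 0.228) and 0.30 with DSS (limma adjusted p = 0.283). The second Cldn2 probe gave 0.25 and 0.37, and both probes correlated with r = 0.871 over the 16 samples.

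The probes of Cldn15 disagreed. The brightest one changed by 0.14 without DSS and 0.12 with DSS (limma adjusted p = 0.594 and 0.68), and ILMN_2674906 by 0.31 and 0.145 (0.249 and 0.644). The dimmest one (ILMN_1245622) read 8.59 to 8.92 in DSS_WT and 9.04 to 9.30 in DSS_KO without overlap, a log2 fold change of 0.42 (limma adjusted p = 0.0593), against -0.07 without DSS. The correlation between pairs of Cldn15 probes over the 16 samples was 0.494 to 0.585, so the Cldn15 values depend on the probe.

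Among the remaining claudins, Cldn7, which lies along the sides of epithelial cells as well as in the junction, read 10.43 to 10.72 in DSS_WT and 10.71 to 10.97 in DSS_KO, a log2 fold change of 0.34 (SE 0.109, limma adjusted p = 0.077). Without DSS it changed by 0.07. Cldn23 changed by -0.26 with DSS and -0.36 without DSS (limma adjusted p = 0.439 and 0.25), and its Naive_KO mean rested on replicate 16, since without that sample the change was -0.57 with an adjusted p of 0.0342. Cldn8, a sealing claudin, was dim in all groups (means of 5.23 to 6.00) and was detected on 3 of 5 DSS_KO arrays. It changed by -0.35 with DSS and -0.32 without DSS (limma adjusted p = 0.363 and 0.384).

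Tjp1 was lower in Naive_KO, at 7.74 to 7.96, than in Naive_WT, at 8.08 to 8.55, and these groups did not overlap. The log2 fold change of -0.35 had a limma adjusted p of 0.156, and with DSS the change was -0.12. Cdh1 differed little between genotypes, with -0.27 without DSS and -0.03 with DSS (limma adjusted p = 0.151 and 0.924). The second Cdh1 probe was close to background and changed by -0.48 and -0.14.

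The 14 probes were counted in each genotype comparison beside all tested probes. Under the thresholds of the study's methods (an adjusted p below 0.01 and a log2 fold change of at least 1 in either direction, "called" below), limma called 0 of 14 probes with DSS, beside 0.862% of all tested probes, and 1 of 14 without DSS, beside 0.656%. The Cldn4 call without DSS was lost (0 of 14) when DSS_KO replicate 8, Naive_WT replicates 9, 10 or 12, or Naive_KO replicates 13, 14 or 15 were left out, and without Naive_KO replicate 16 Cldn4 was also called with DSS (1 of 14). When the fold limit was dropped and an adjusted p under 0.05 was asked for, Cldn4 was the 1 probe of 14 in each (5.63% and 5.19% of all probes). At an unadjusted p under 0.05 there were 5 of 14 in each, against 22.2% and 22.8% of all probes. The groups did not overlap for 3 of 14 probes with DSS (Cldn4, Ocln and the dim Cldn15 probe; 14.7% of all probes) and for 2 of 14 without DSS (Cldn2 and Tjp1; 12.3%). By the brightest probe, 7 of 10 genes were lower in Mbd2KO in each comparison, with median log2 fold changes of -0.10 with DSS and -0.30 without DSS, where the medians of all tested probes were -0.0034 and -0.0011. In the averaged contrast 1 of 14 probes was called (1.24% of all probes) and 2 of 14 had an adjusted p under 0.05 (14.5%). At an unadjusted p under 0.05 there were 9 of 14 in that contrast, beside 30.2% of all probes, and by the brightest probe 7 of 10 genes. They included both Cldn2 probes, at 0.31 each (limma adjusted p of 0.0694 for the brightest).

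**Figure D3:**
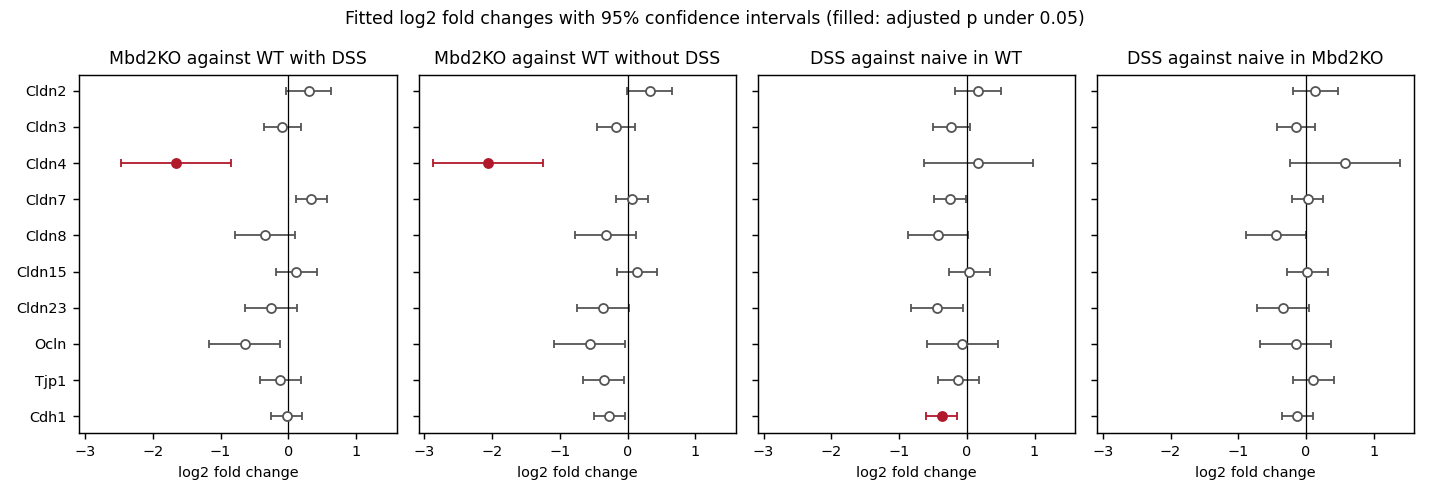
Fitted log2 fold changes (x axes) of the brightest tested probe of each gene (y axis) in the genotype and DSS comparisons, with 95% confidence intervals. Filled points have a limma adjusted p under 0.05, which held for Cldn4 in both genotype comparisons (-1.66 and -2.06) and for Cdh1 in the DSS comparison in WT (-0.37).

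The DSS comparisons ask how the same genes responded to injury in each genotype. In WT mice Cdh1 was the gene past the test by its brightest probe. Its signals were 12.24, 12.52, 12.52 and 12.66 in Naive_WT and 12.14, 12.17, 11.98 and 12.16 in DSS_WT. All DSS_WT samples lay below all Naive_WT samples. The log2 fold change was -0.37 (SE 0.108, 95% confidence interval -0.60 to -0.14) or a 1.29-fold lower level, with a limma adjusted p of 0.0378, and leaving out any of DSS_WT replicates 1 to 4 or Naive_WT replicates 10 to 12 took it above 0.05 (up to 0.106), as did median scaling (-0.31, adjusted p = 0.119). In Mbd2KO mice Cdh1 changed by -0.13 (limma adjusted p = 0.494), and the difference between the genotypes was 0.24 (limma adjusted p = 0.609).

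The dim Cldn15 probe fell in WT by 0.40 on the log2 scale (limma adjusted p = 0.0491, above 0.05 in 16 of 26 alternatives), while the other Cldn15 probes changed by 0.04 and -0.10. Cldn4 changed by 0.17 in WT and 0.58 in Mbd2KO (limma adjusted p = 0.816 and 0.375). Ocln changed by -0.07 and -0.15, and Tjp1 by -0.13 and 0.11. Cldn23 changed by -0.44 in WT and -0.34 in Mbd2KO, and Cldn8 by -0.43 and -0.45, with adjusted p of 0.13 or more in limma. Averaged over both genotypes, a contrast added after the data were seen, Cldn23 fell by 0.39 (limma adjusted p = 0.04), Cldn8 by 0.44 (0.0478) and Cdh1 by 0.25 (0.0279), and the second Cldn2 probe rose by 0.39 (0.0301) where the brightest changed by 0.15 (0.362). Over 25 alternatives Cdh1 ranged from -0.291 to -0.166 (limma adjusted p of up to 0.18), Cldn8 from -0.566 to -0.149 (up to 0.103) and Cldn23 from -0.456 to -0.28 (up to 0.104). These 3 no longer passed in 8, 14 and 12 of the 25. Leaving out DSS_WT replicate 3, DSS_KO replicate 8 or Naive_WT replicate 12 left 0 of the 4 probes that passed in this contrast with an adjusted p under 0.05 (19.3%, 16.3% and 17% of all probes). Without DSS_WT replicate 4, DSS_KO replicate 6, Naive_WT replicate 10 or Naive_KO replicate 16 there was 1, without DSS_KO replicate 7, Naive_WT replicate 9 or Naive_KO replicates 14 or 15 there were 2, and without any other sample 3 or 4.

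In limma 0 of 14 probes were called in the DSS comparison in WT (1.74% of all tested probes) and 0 of 14 in Mbd2KO (1.72%). At an adjusted p under 0.05 there were 2 of 14 in WT (10.5% of all probes) and 0 of 14 in Mbd2KO (9.42%), and at an unadjusted p under 0.05 there were 5 (26.3%) and 2 (24.5%). For the interaction of genotype and DSS, limma gave 0 of 14 probes under either adjusted threshold, as for all tested probes (0% called and 0% at an adjusted p under 0.05), and 1 of 14, the dim Cldn15 probe, at an unadjusted p under 0.05 (10.7% of all probes). In the DSS contrast averaged over genotypes, 0 of 14 were called (2.07% of all probes) and 4 of 14 had an adjusted p under 0.05 (20.8%), as many as at an unadjusted p under 0.05 (34.4%).

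Markers of other cells moved with these comparisons. With DSS, 4 of 4 tested smooth muscle genes fell in DSS_KO (adjusted p under 0.05), among them Tagln at -1.60 and Myh11 at -1.36, and their summed signal was 4850 to 7340 in DSS_WT and 1820 to 3490 in DSS_KO. Cnn1 was not detected often enough to be tested. Without DSS the summed signal was 3910 to 7400 in Naive_WT and 3260 to 4590 in Naive_KO, and 0 of 4 passed. Of the 5 markers of mature colonocytes, 1, Aqp8, passed with DSS, as lower in DSS_KO (-2.12, limma adjusted p = 0.0135), and 0 passed without DSS. With DSS, Car4 (-1.19, limma adjusted p = 0.0684) and Slc26a3 (-0.66, 0.297) were lower without passing, and the median of the 5 was -0.66. Krt20 of this list was 0.61 higher (adjusted p = 0.0619), Car1 changed by -0.02, and the summed signal was 22800 to 31900 in DSS_WT and 25500 to 32700 in DSS_KO. Of the 5 fibroblast markers, 1, Lum, passed, as lower in DSS_KO (-0.89, limma adjusted p = 0.0325), and their summed signal was 5260 to 5860 in DSS_WT and 3710 to 4240 in DSS_KO. Without DSS, the goblet cell genes Agr2 (-0.87, limma adjusted p = 0.0322) and Spdef (0.86, 0.00542) and the myeloid gene Csf1r (0.67, 0.0486) passed between genotypes, of 5 tested goblet and 4 tested myeloid markers. The summed goblet signal was 50400 to 68000 in Naive_WT and 41900 to 61000 in Naive_KO. In the averaged genotype contrast, in which Ocln passed, 4 of 4 smooth muscle, 4 of 5 endothelial and 1 of 5 fibroblast markers were lower at an adjusted p under 0.05. Csf1r, 1 of the 4 tested myeloid markers, was higher (0.44, limma adjusted p = 0.0351). Of the markers of epithelial cell types, Aqp8 (-1.19), the goblet cell gene Tff3 (-0.69) and the enteroendocrine gene Chga (-0.63) were lower there, and Krt20 (0.62) and Spdef (0.59) were higher. The part of these cells in the Cldn4 and Ocln differences was not tested.

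Markers also moved in the DSS comparisons. Of the 5 colonocyte markers, 2 passed in Mbd2KO mice, both lower, Aqp8 (-2.83, limma adjusted p = 0.00151) and Car4 (-1.59, 0.0128). Slc26a3 was lower without passing (-0.98, limma adjusted p = 0.0968), while Krt20 and Car1 changed by 0.23 and 0.07. In WT 0 of 5 passed, with Aqp8 at -0.97, Car4 at -0.77, Slc26a3 at -1.09, Krt20 at 0.255 and Car1 at 0.07. The Aqp8 interaction had an adjusted p of 0.301 in limma. With DSS 4 of 4 tested myeloid markers rose in both genotypes, from a summed signal of 231 to 433 in Naive_WT to 796 to 1490 in DSS_WT and from 298 to 703 in Naive_KO to 1170 to 1390 in DSS_KO. The 2 tested neutrophil markers also rose in both, from 43.4 to 47.9 in Naive_WT to 90 to 754 in DSS_WT and from 40.8 to 60.9 in Naive_KO to 163 to 2360 in DSS_KO. In WT 1 of 5 tested goblet cell markers, Agr2, fell with DSS (-0.72, limma adjusted p = 0.049), while the others changed by -0.16 to 0.29. Of 2 tested T and NK cell markers 1, Cd3d, rose in WT (0.56, limma adjusted p = 0.0253). In the DSS contrast averaged over genotypes, 3 of 5 colonocyte markers were lower at an adjusted p under 0.05 (Aqp8 at -1.90, Car4 at -1.18 and Slc26a3 at -1.04). At that threshold 4 of 5 fibroblast, 4 of 4 myeloid and 2 of 2 neutrophil markers were higher. So were Cdx2, 1 of the 8 epithelial identity markers (0.55, limma adjusted p = 0.0397), and Cd3d, 1 of 2 tested T and NK cell markers (0.52, 0.00239). Itgam of the myeloid and Cxcr2 of the neutrophil list were not tested. The part of these cells in the Cdh1, Cldn8 and Cldn23 differences was not tested.

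Across samples of the same group, some of these genes varied together. After the group means were removed, Cldn3 and Cldn4 correlated with r = 0.923 over the 16 samples, although of this pair only Cldn4 passed the test between genotypes. Cldn3, Cldn4, Cldn23 and Ocln formed a set in which each pair had r of 0.809 or more, and the highest r of any other pair of the 45 was 0.665, between Cldn3 and Cldn8. In Naive_WT, replicate 11 was the lowest and replicate 12 the highest in all 4 of these genes, and in Naive_KO replicate 16 was the highest. These values are a description, and both genes of a pair share the array and its normalization.

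Over all tested genes, the level of Cldn4 across the 16 samples was most like that of Sprr1a (Pearson r = 0.979, Spearman 0.976), which encodes a small proline-rich protein of squamous and stressed epithelia, and of Eif2ak3 (r = 0.963, Spearman 0.947), which encodes the endoplasmic reticulum stress kinase PERK. After the group means were removed the r values were 0.92 and 0.887. The genes nearest to Ocln were Trp53bp2 (r = 0.952) and Ugcg (r = 0.944), and those nearest to Cdh1 were Orc3 and Chodl (r = 0.904 each). For Cldn23 they were Acta1 (r = 0.941) and Gtl2 (r = 0.933), and for Cldn8 H1f2 (r = 0.868) and Slc25a16 (r = 0.859).

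The wider set of junction genes held 99 further genes in lists of other claudins, tight junction, adherens junction, desmosome and gap junction genes, of which 94 were on the array and 70 were tested. With DSS, 5 of 70 were lower and 2 higher in DSS_KO at an adjusted p under 0.05, where 5.63% of all tested probes passed, and the median log2 fold change of the 70 was -0.09. The lower ones included the endothelial junction genes Esam, which was called at -1.18 (limma adjusted p = 0.00228), Cdh5 at -0.96 (0.0129) and Cldn5 at -0.77 (0.0134). Without background correction the changes of these dim probes were smaller, at -0.39 for Cdh5 and -0.34 for Cldn5. Of 5 endothelial markers, a list that itself holds Cdh5 and Cldn5, 4 were lower in DSS_KO, and their summed signal was 438 to 686 in DSS_WT and 301 to 349 in DSS_KO. The part of endothelial cells in these values was not tested.

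Also lower in DSS_KO were vinculin (Vcl), which links junctions to actin, at -0.69 (limma adjusted p = 0.0247), and the gap junction gene Gja1 at -0.84 (0.0232). In this comparison 4 of 4 smooth muscle markers were lower too, and the summed fibroblast signal was 5260 to 5860 in DSS_WT and 3710 to 4240 in DSS_KO. The part of these cells in the Vcl and Gja1 values was not tested. Without DSS_WT replicate 2, 4 of the 70 passed (2.12% of all tested probes). The adjusted p of Vcl exceeded 0.05 without DSS_WT replicate 2 or DSS_KO replicates 6, 7 or 8 (up to 0.0906), and that of Gja1 without DSS_WT replicates 2 or 4 or DSS_KO replicates 5 or 7 (up to 0.071). Higher were the desmosomal plaque gene Evpl, at 0.84 (0.0103), and Cldn10, at 1.21 (0.0311). Of the 7 other claudin genes tested, Cldn10 was the 1 that was higher and passed the test, from means of 4.91 in Naive_WT, 5.80 in Naive_KO and 5.59 in DSS_WT to 6.80 in DSS_KO. Its limma adjusted p rose to as much as 0.106 when DSS_WT replicates 1 or 2 or DSS_KO replicates 5, 6 or 8 were left out. Without background correction Cldn10 changed by 0.51.

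Without DSS, 2 of 70 were lower and 1 higher in Naive_KO at an adjusted p under 0.05, beside 5.19% of all tested probes. These were Esam at -0.75 (limma adjusted p = 0.0263), the claudin-domain gene Cldnd1 at -0.79 (0.0231) and Evpl at 0.76 (0.0189). The median of the 70 was -0.06. Esam was no longer under 0.05 without Naive_WT replicates 10 or 11 or Naive_KO replicates 13, 14 or 15 (up to 0.0782), Cldnd1 without Naive_WT replicate 10 or Naive_KO replicate 15 (up to 0.0713), and Evpl without Naive_WT replicate 11 (0.0534). Leaving out Naive_WT replicates 10 or 11 left 1 of the 70 (2.05% and 2.87% of all tested probes). In contrast, 5 passed without Naive_WT replicate 12 (4.13%) and 7 without Naive_KO replicate 16 (6.24%).

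**Figure D4:**
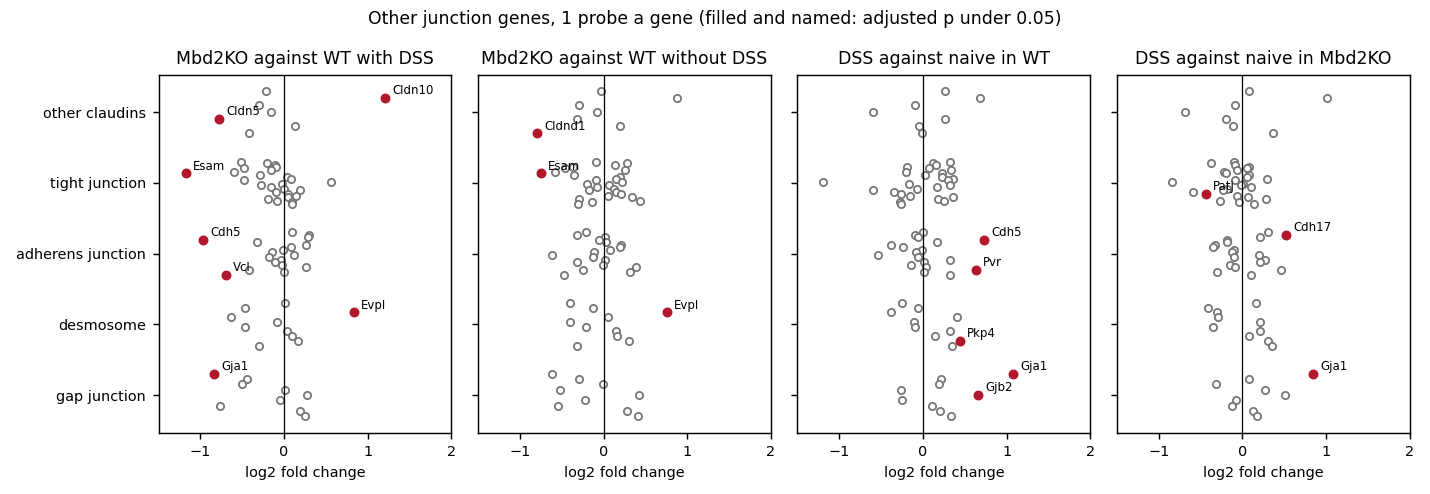
Log2 fold changes (x axes) of the 70 further junction genes tested, 1 probe per gene, by list (y axis) in the genotype and DSS comparisons. Filled and named points have a limma adjusted p under 0.05, which held for 7 genes in the genotype comparison with DSS and for 3 without DSS, and most points lie near 0.

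In response to DSS, 5 of 70 rose and 0 fell in WT at an adjusted p under 0.05, beside 10.5% of all tested probes. In Mbd2KO 2 rose and 1 fell, beside 9.42% of all probes. In WT Gja1 was called at 1.07 (limma adjusted p = 0.00346), and the others were Cdh5 at 0.73 (0.0341), Gjb2, which encodes a gap junction protein of epithelia, at 0.66 (0.0237), the nectin-like receptor gene Pvr at 0.63 (0.0465) and the plakophilin gene Pkp4 at 0.44 (0.0323). In Mbd2KO those that rose were Gja1 at 0.85 (limma adjusted p = 0.0146) and the intestinal cadherin gene Cdh17 at 0.52 (0.0187), and the polarity gene Patj (Inadl in the file) fell, at -0.44 (0.038). Of the 5 fibroblast markers, which come from cells that also express Gja1, 3 passed with DSS in WT, as higher, and 0 passed in Mbd2KO. Their summed signal in WT was 2540 to 5100 without DSS and 5260 to 5860 with DSS. The part of these cells in the Gja1 values was not tested. For the interaction limma gave 0 of 70 at an adjusted p under 0.05. In the genotype contrast averaged over both treatments, 13 of 70 were lower and 4 higher at that threshold, beside 14.5% of all tested probes. The median of the 70 there was -0.11, and 1 gene, of the other claudins list, was called, as higher. In the DSS contrast averaged over genotypes 8 of 70 were higher and 5 lower, beside 20.8% of all probes, and 0 were called. In WT 1 to 3 of the 70 passed without DSS_WT replicates 3 or 4 or any of the Naive_WT samples (5.55% to 8.62% of all probes), Gja1 always among them. In Mbd2KO 1 passed without DSS_KO replicate 8 (4.99%) or Naive_KO replicate 14 (6.04%).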

How the data were processed

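Messenger RNA of sorted mouse colon epithelial cells was measured on 18 Illumina MouseWG-6 BeadChip arrays. The deposited values are mean bead intensities per probe on a linear scale, neither normalized nor background-subtracted per the file headers, each with a detection p-value that the authors deposited beside it. The submitters' processing notes name lumi and limma. Other values of each array, 72 columns in all, were not used. The intensities were background-corrected with 936 negative controls, quantile-normalized and log2-transformed by neqc (offset 16; limma 3.58.1, R 4.3.3). The repeat arrays 4R and 5R, which the labels do not explain, were averaged with 4 and 5, as each pair differed less (SD of the log2 difference 0.194 and 0.236) than other pairs of the group (0.287 or more). A probe was tested if its detection p-value was below 0.05 on 4 or more of the arrays. One limma fit to 16 samples estimated the group means, with Benjamini-Hochberg adjustment over 21938 probes within each contrast, and the script was tested on simulated data. The number of arrays limits the precision, and although the study's methods say that samples came from 3 separate experiments, the experiment of each sample is not given in the sources used here and was not a term of the fit. Each of the 10 genes is given by its brightest tested probe, and where its other tested probes are shown, they have their own values. The further junction genes are given by their brightest tested probe alone. Some of them had more tested probes, such as Cldn10 (3), Cdh5 (2), Gjb2 (3), Pkp4 (3) and Patj (5), whose values were not compared. Of the further junction genes, those called and up to 3 of the highest and 3 of the lowest with an adjusted p under 0.05 in a contrast were to be named, and all others that passed in the planned contrasts were named after their values were seen. For Cldn4, Ocln, Cdh1, Cldn23 and Cldn8 the 2 genes with the highest Pearson r are given. The genes, lists and tests were chosen with earlier results of these data known. The alternatives were 26 other settings, 16 of them leaving out 1 sample, and the averaged contrasts and the difference between Cldn4 and Cldn3 were added after the data were seen.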

Additional observations from a re-analysis of the deposited data

Results flagged for a closer look

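In 3 of the 56 groups of 4 samples, 1 sample stood apart from the others by Dixon's criterion, which chance alone flags in about 1 of 20 groups. The Cldn8 signal of Naive_WT replicate 12 was 6.45, where the other samples read 5.78 to 5.88. The signal of the Cldn15 probe ILMN_2674906 in DSS_KO replicate 6 was 11.42, against 11.23 to 11.26. The Cdh1 signal of DSS_WT replicate 3 was 11.98, against 12.14 to 12.17, and without this sample the Cdh1 change with DSS in WT was -0.33 with a limma adjusted p of 0.0975.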

How the results depend on the processing

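Across 26 alternatives, Cldn4 stayed lower in Mbd2KO, from -1.78 to -1.54 with DSS and from -2.51 to -1.77 without DSS. Its adjusted p exceeded 0.05 with DSS without DSS_WT replicate 2 (0.0618), DSS_KO replicate 8 (0.053) or the filter on dim probes (0.0533), and without DSS in a fit to only the groups compared (0.0549). Averaged over both treatments it was called in all 25 alternatives (adjusted p of at most 0.00197). Cldn7 with DSS passed 0.05 with 18 separate arrays (0.0235), no background correction (0.04), an offset of 50 (0.0481) and array weights (0.0394). Esam, Cldn5, Cdh5 and Evpl in the genotype comparison with DSS and Gja1 in the DSS comparison in WT passed in all 26, but the size of dim genes depended on the background correction, without which Cdh5 was -0.386, Cldn5 -0.341 and Cldn10 0.507 with DSS, and Cdh5 0.308 for DSS in WT. No paired analysis was possible because each group has replicate numbers of its own. The cause of the changes below was not tested.

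The share of all tested probes with an adjusted p under 0.05 moved with the same settings, so the counts below stand beside these shares. In the genotype comparison with DSS it was 5.63%, and 12.8% with 18 separate arrays, 8.58% with array weights, 4.56% without background correction, 5.37% with an offset of 50, 6.1% in the fit to only the groups compared, 1.65% without the filter and 2.12% without DSS_WT replicate 2. Without DSS it was 5.19%, and 6% with 18 separate arrays, 7.06% with array weights, 6.19% with the stricter filter, 1.94% without the filter and 1.47% in the fit to only the groups compared. For DSS in WT it was 10.5%, and 15.7% with 18 separate arrays, 15% with median scaling, 13.5% with array weights, 7.96% in the fit to only the groups compared and 3.99% without the filter, and for DSS in Mbd2KO it was 9.42%, and 13.8% with 18 separate arrays and 15.9% with array weights. In the averaged contrasts it was 14.5% for genotype and 20.8% for DSS, and 5.47% and 8.83% without the filter. Without 1 sample the share was 2.12% to 6.69% between genotypes with DSS and 2.05% to 6.24% without DSS. It was then 5.55% to 12.4% for DSS in WT and 4.99% to 10.5% for DSS in Mbd2KO. In the averaged contrasts it was then 10.4% to 15.9% for genotype and 16.1% to 21.1% for DSS.

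The number of the 14 probes called was 0 with DSS and became 1 with 18 separate arrays and in the fit to only the groups compared, and it was 1 without DSS and became 0 in that fit, without background correction and without the filter. The number with an adjusted p under 0.05 in the genotype comparison with DSS was 1 and became 3 with 18 separate arrays, no background correction, an offset of 50 or array weights, and 0 without the filter. Without DSS it was 1 and became 0 in the fit to only the groups compared and 2 with array weights. For DSS in WT it was 2 and became 0 with the sample as a random block or in the fit to only the groups compared, and 1 without the filter. With median scaling it was also 2, but these were Cldn8 (adjusted p of 0.046) and the second Cdh1 probe (0.0256), whereas the brightest Cdh1 probe (0.119) and the dim Cldn15 probe no longer passed. For DSS in Mbd2KO it was 0 and became 1 with median scaling or array weights. In the averaged genotype contrast it was 2 and became 1 without the filter and 5 with array weights, and in the averaged DSS contrast it was 4 and became 1 without the filter.

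Leaving out 1 sample at a time gave 0 to 1 called in each genotype comparison. At an adjusted p under 0.05 it gave 0 to 1 with DSS, 1 to 2 without DSS, 0 to 2 for DSS in WT (0 without DSS_WT replicates 1, 3 or 4 or Naive_WT replicates 11 or 12), 0 to 1 for DSS in Mbd2KO (1 without DSS_KO replicate 7), 1 to 3 in the averaged genotype contrast and 0 to 4 in the averaged DSS contrast.

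Of the 70 further junction genes, 7 passed in the genotype comparison with DSS, and 14 with 18 separate arrays, 11 in the fit to only the groups compared, 12 with array weights and 4 to 9 without 1 sample. Without DSS 3 passed, and 6 with 18 separate arrays, no background correction, an offset of 50 or array weights, 5 with a stricter filter, 0 in the fit to only the groups compared and 1 to 7 without 1 sample. For DSS in WT 5 passed, and 12 with 18 separate arrays, 11 with median scaling, 3 without the filter, 8 with array weights and 1 to 7 without 1 sample. For DSS in Mbd2KO 3 passed, and 6 with 18 separate arrays, 8 with array weights and 1 to 5 without 1 sample (5 without DSS_WT replicate 2).

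Signs turned for results whose adjusted p was not under 0.05. Median scaling gave 0.011 for Ocln and 0.006 for the Cldn15 probe ILMN_2674906 with DSS in WT, 0.033 for Cldn8 and 0.050 for Cldn15 in the interaction, and 0.032 for Tjp1 in the averaged DSS contrast. Array weights gave 0.107 for the second Cdh1 probe with DSS in Mbd2KO, and 0.125 for Cldn8 and 0.051 for Ocln in the interaction. The interaction of Cldn8 became 0.030 without 4R and 5R, 0.007 without background correction and 0.006 with an offset of 50, and that of Ocln 0.025 with 18 separate arrays.

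Without 1 sample, the genotype difference with DSS ranged from -0.202 to 0.035 for Tjp1 and from -0.068 to 0.007 for Cdh1. The DSS change in WT ranged from -0.141 to 0.365 for Cldn4, -0.067 to 0.161 for Cldn15 and -0.239 to 0.131 for Ocln, and in Mbd2KO from -0.029 to 0.085 for Cldn7, -0.050 to 0.114 for Cldn15, -0.315 to 0.032 for Ocln and -0.158 to 0.111 for the second Cdh1 probe. The interaction ranged from -0.147 to 0.087 for Cldn2, -0.012 to 0.243 for its second probe, -0.012 to 0.194 for Cldn3, -0.201 to 0.113 for Cldn8, -0.140 to 0.088 for Cldn15, -0.001 to 0.308 for Cldn23 and -0.281 to 0.097 for Ocln. The averaged DSS change ranged from -0.023 to 0.091 for Cldn15 and from -0.086 to 0.043 for Tjp1.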
